A study of Macaca mulatta with 4 samples.

Results

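Histone lysine methyltransferases, which place methyl groups on lysines of histone tails (writers), and the demethylases that remove them (erasers) were followed in rhesus macaque (Macaca mulatta) morulae. The set was a list of 42 gene symbols, 25 writers and 17 erasers, looked up by Ensembl macaque gene identifier in a table of 21314 genes. All 42 symbols matched, each to 1 identifier, and all 42 were among the 13227 genes with enough reads to be tested. Each gene was placed under the lysine it is best known for, and several act on more than one.

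Writers take the methyl group from S-adenosylmethionine and carry a SET domain, apart from DOT1L, which is built differently. Erasers are of 2 chemistries. KDM1A and KDM1B are amine oxidases that use FAD, and the 15 others belong to the JmjC family, which uses oxygen, iron and 2-oxoglutarate. Methylation of H3K4 marks promoters and enhancers, H3K36 and H3K79 mark transcribed genes, and H3K9, H3K27 and H4K20 are linked to silencing and compaction. In mammalian embryos these marks are rewritten after fertilization, and methylation of H3K4, H3K27 and H3K36 in the oocyte has been tied to imprinting in mice.

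The study compared 2 libraries of androgenetic (AG) with 2 of gynogenetic (GG) morulae. In the series' terms these are embryos whose nuclear genome comes from the father alone (AG) or from the mother alone (GG). The labels give genotype and stage only, so strain, parent animals, ploidy, sex chromosomes and hours in culture are not stated here, nor clearly how many embryos made up a library. Both groups had no treatment named, and there was no biparental control among the samples analysed. Below, rose or fell in GG means higher or lower than in AG. Which group departed from biparental embryos cannot be told. The labels do not say that replicates are different animals or cultures; the p-values reflect variation among these libraries, part of which may be technical.

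The libraries held 14129608 (AG replicate 1), 19108735 (AG replicate 2), 21335918 (GG replicate 1) and 29733977 (GG replicate 2) estimated counts; below, pairs of values are given in the order replicate 1, replicate 2. All 8 matched embryo markers of a list of 12 were detected in each library, with summed levels of 1635 to 1865 CPM in AG and 675 to 712 CPM in GG; CPM is counts per 1000000 of the normalized total of tested genes. ZSCAN4, a marker of embryonic genome activation, made up most of the AG sum, at 1325 and 1024 CPM in AG against 3.23 and 1.33 CPM in GG. Without it the sum of the other 7 ran the opposite way. It was 540 and 612 CPM in AG and 672 and 711 CPM in GG. POU5F1 was its largest part, at 181 and 389 CPM in AG and 465 and 479 CPM in GG. Single markers were mixed. Of the 8, 3 had a positive and 5 a negative log2 fold change (GG minus AG). KLF17 went from 34.2 and 21.4 CPM in AG to 2.37 and 0.614 CPM in GG. DPPA4 went from 62.8 and 47.9 CPM in AG to 15.8 and 12.2 CPM in GG. The 8 matched blood cell markers summed to 145 and 67.7 CPM in AG and 13.2 and 15.7 CPM in GG, mostly PTPRC in AG (141 and 65.9 CPM), with GATA1 at 0 in every library. Without PTPRC the sum of the other 7 also ran the opposite way. It was 4.13 and 1.83 CPM in AG and 6.70 and 12.2 CPM in GG. LYZ was the main part in GG (5.37 and 9.82 CPM). HBA1 overlapped between groups, at 3.49 and 0.457 CPM in AG and 0.475 and 1.33 CPM in GG. Cumulus cell markers (8 of 12 matched) summed to 6.98 and 16.4 CPM in AG and 16.1 and 40.2 CPM in GG, with FSHR at 0. The largest part was CYP11A1, at 3.21 and 15.8 CPM in AG and 13.1 and 29.3 CPM in GG. TNFAIP6 had 2.56 and 0.102 CPM in AG and 1.61 and 10.5 CPM in GG. Both genes overlapped between groups. Sperm markers (9 of 10 matched) summed to between 21.9 and 25.3 CPM, with PRM2, ODF1 and SMCP at 0. Most of that was ODF2, at 22.6 and 23.1 CPM in AG and 21.1 and 22.9 CPM in GG. Oocyte markers (10 of 12 matched) summed to between 317 and 487 CPM. Nearly all of that was OOEP, at 425 and 312 CPM in AG and 368 and 478 CPM in GG. The part of these differences in the results that follow was not tested. In whole embryos, fewer cells that express a gene and less of its RNA per cell cannot be told apart.

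Of the 42 members, 6 were higher in AG and 0 were higher in GG at the threshold, an adjusted p under 0.05 (edgeR's quasi-likelihood test, Benjamini-Hochberg adjustment over 13227 genes). They were the writers SMYD3, SETDB2 and KMT5A and the erasers KDM5A, KDM5B and KDM4A, with changes from 3.01-fold to 6.06-fold. The 6 calls are 14.3% of the members, beside 12.9% of all tested genes. Split by direction, 6.34% of all tested genes were called with higher values in GG and 6.58% with higher values in AG. At an unadjusted p under 0.05 there were 7 members with higher and 9 with lower values in GG, 38.1% of members beside 32.0% of all genes, and DESeq2, which called 23.3% of all genes, called 4 members as higher in GG and 6 as higher in AG.

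The signs of the log2 fold changes (GG minus AG) were split, 22 positive and 20 negative, with a median of 0.11 beside 0.04 over all tested genes. The median size of the change was 0.62, beside 0.80 over all genes. Both GG libraries lay above both AG libraries in 15 members (35.7% of members, beside 33.4% of all tested genes) and below them in 14 (33.3%, beside 30.7%). These 29 are 69.0% of members, beside 64.1% of all tested genes. Shares of called members were 12.0% of 25 writers and 17.6% of 17 erasers.

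**Figure D1:**
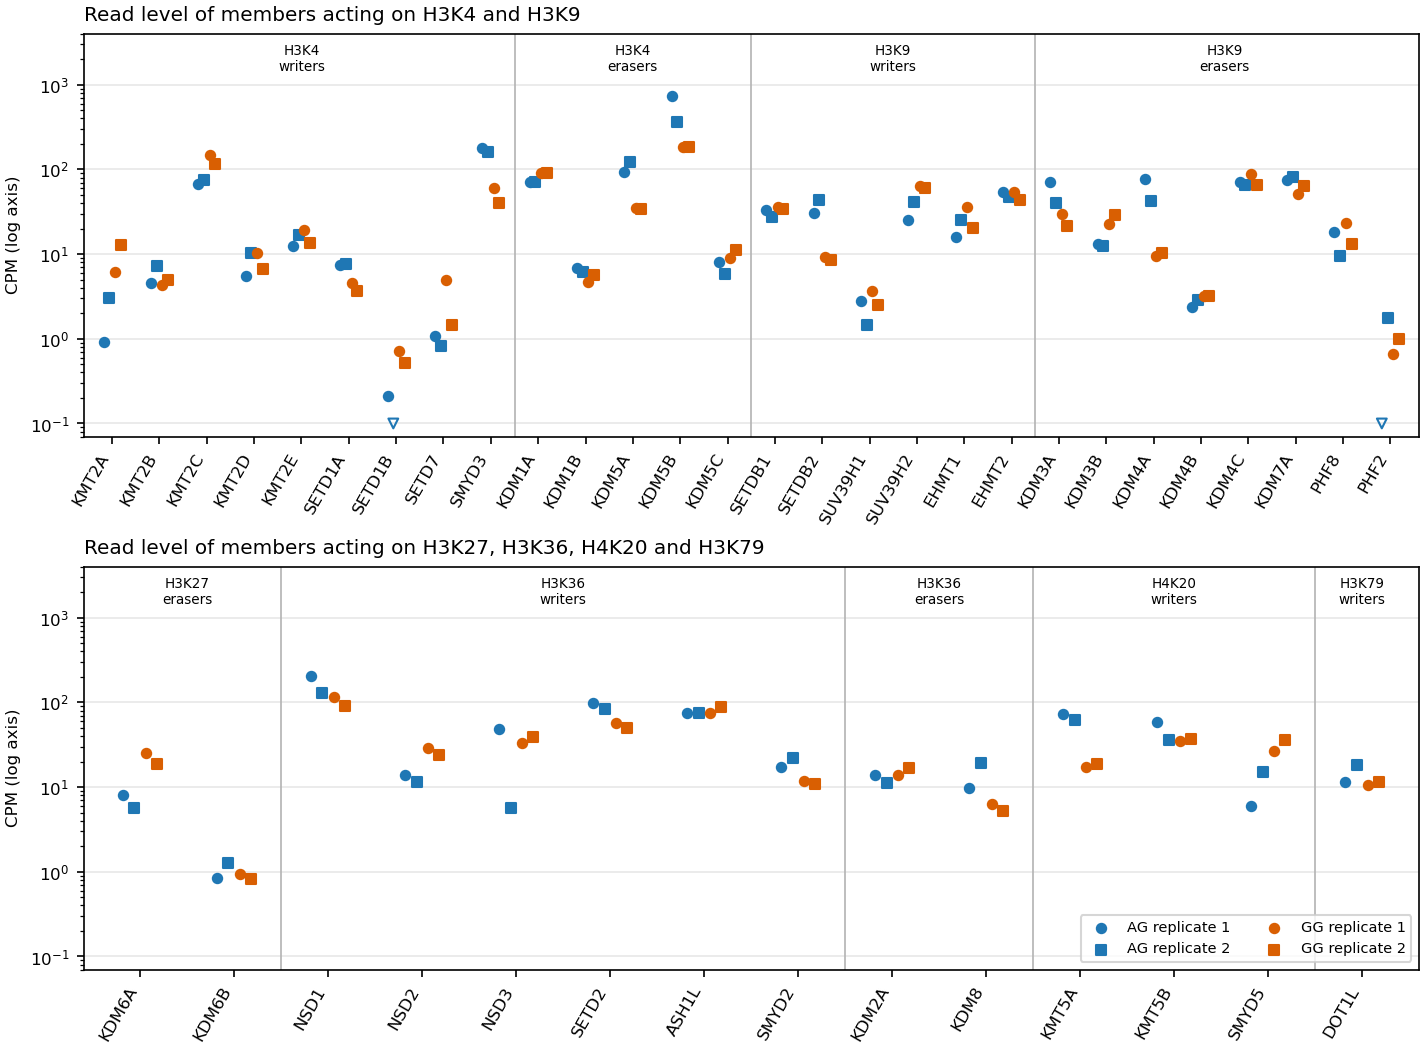
Read level of the 42 members in CPM (log axis) in each of the 4 libraries, ordered by target lysine and role; circles are replicate 1 and squares replicate 2, AG in blue and GG in orange, and open triangles at the bottom mark a count of 0. Both AG points lie above both GG points for SMYD3, KDM5A, KDM5B, SETDB2, KDM4A and KMT5A, and NSD3 has AG points at 48.3 and 5.69 CPM. Levels are not divided by gene length, so heights should not be compared between genes.

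**Figure D2:**
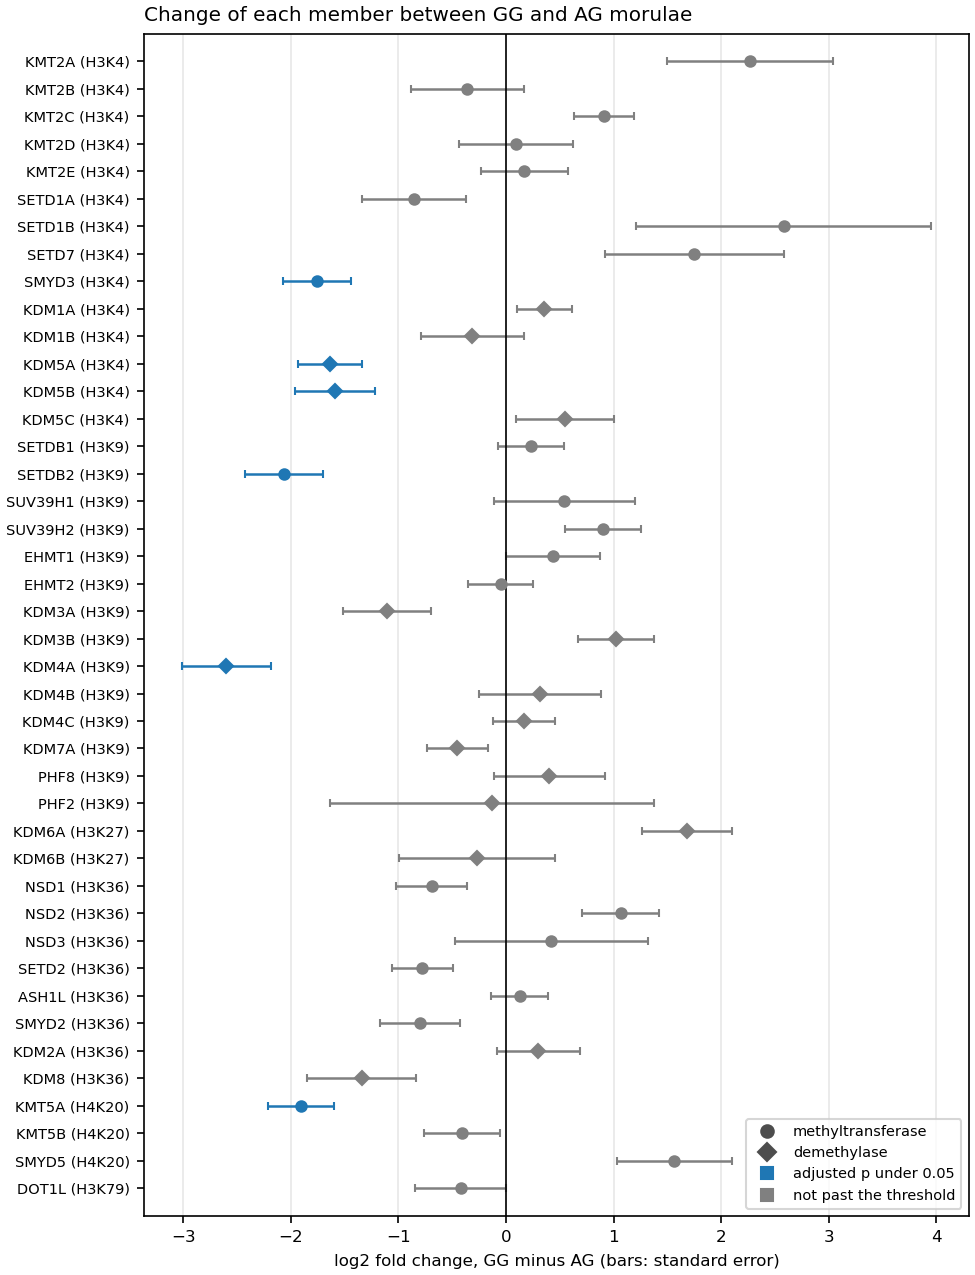
Log2 fold change (GG minus AG) of each member with its standard error; circles are methyltransferases, diamonds demethylases, and blue marks an adjusted p under 0.05. The 6 blue members all lie on the AG side, between -1.59 and -2.60, while the other 36 spread on both sides of 0.

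Among the 9 writers assigned to H3K4, SMYD3 fell in GG and the other 8 did not pass the test. SMYD3, reported to methylate histone tails and a kinase in the cytoplasm, stood at 180 and 159 CPM in AG and at 60.5 and 40.03 CPM in GG. The groups did not overlap, and the change was 3.37-fold (log2 fold change -1.75 ± 0.32 SE, edgeR adjusted p = 0.0294). Its deposited values were not whole numbers in any library. In all, 13 members had such a value in at least 1 library, as occurs where an estimate shares reads between transcripts or genes.

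The large KMT2 enzymes, which work inside COMPASS-type complexes, did not pass the test. KMT2A, a writer at promoters of developmental genes, had 0.926 and 2.997 CPM in AG and 6.13 and 13.0 CPM in GG. Its log2 fold change of 2.27 ± 0.77 SE rested on 13 and 59 counts in AG and was not called (adjusted p = 0.107). Without AG replicate 2 it was called at 3.35 (adjusted p = 0.0282), as it was with DESeq2 (0.0218). KMT2C, which places H3K4 monomethylation at enhancers, had 66.5 and 74.1 CPM in AG and 150 and 114 CPM in GG. All GG values lay above all AG values, with a log2 fold change of 0.91 ± 0.28 SE (adjusted p = 0.0877; 0.0499 with DESeq2). Its partner in that function, KMT2D, overlapped between groups at 5.56 and 10.2 CPM in AG and 10.3 and 6.61 CPM in GG.

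KMT2B, which methylates H3K4 in growing mouse oocytes, also overlapped, at 4.56 and 7.31 CPM in AG and 4.27 and 4.98 CPM in GG. KMT2E, a SET protein with no established methyltransferase activity, had 12.6 and 16.8 CPM in AG and 19.5 and 13.6 CPM in GG. SETD1A and SETD1B supply most H3K4 trimethylation in many cells. SETD1A had 7.41 and 7.62 CPM in AG and 4.61 and 3.72 CPM in GG, separate but not called (log2 fold change -0.85 ± 0.48 SE, adjusted p = 0.282). SETD1B was near the limit of detection, with 3 and 0 counts in AG and 15 in each GG library, a ratio of GG to AG of 6.69 (95% counting interval 2.08 to 34.3). That interval pools the reads of each group and leaves out differences between libraries. In the edgeR fit SETD1B was not called (log2 fold change 2.58 ± 1.37 SE, adjusted p = 0.255). SETD1B was also the 1 member that passed the filter on low counts through the GG libraries alone. SETD7, which also methylates proteins other than histones, had 15 and 16 counts in AG and 103 and 43 in GG. Its log2 fold change of 1.75 ± 0.83 SE was not called (adjusted p = 0.210) and was 0.65 without GG replicate 1.

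Of the 5 erasers of H3K4 methylation, KDM5A and KDM5B, JmjC enzymes that remove trimethyl groups, fell in GG, and KDM1A, KDM1B and KDM5C were not called. KDM5B, known in mouse embryos for clearing broad H3K4 domains at genome activation, gave the most reads of all members, 26803 over the 4 libraries. It stood at 736 and 367 CPM in AG and 183 and 184 CPM in GG. AG replicate 1 was as far above AG replicate 2, as a ratio, as that library was above GG, while the GG libraries were almost equal. The log2 fold change was -1.59 ± 0.37 SE (adjusted p = 0.0478), with -1.01 without AG replicate 1 and -2.02 without AG replicate 2. The call was lost with the DESeq2 size factors (0.0520) and with upper-quartile normalization (0.0510).

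KDM5A stood at 93.3 and 122 CPM in AG and 35.4 and 33.9 CPM in GG. Its groups did not overlap, and the change was 3.11-fold (log2 fold change -1.64 ± 0.30 SE, adjusted p = 0.0294). KDM5C, the X-linked gene of the family, had the other sign, with 7.98 and 5.84 CPM in AG and 8.98 and 11.2 CPM in GG (0.55 ± 0.45 SE, adjusted p = 0.455). KDM1A, the amine oxidase of the CoREST complex, was nearly constant within each group, at 70.7 and 71.4 CPM in AG and 91.6 and 90.4 CPM in GG. That difference of 0.36 ± 0.26 SE on the log2 scale was not called. KDM1B, needed in mouse oocytes for some maternal imprints, had 6.77 and 6.09 CPM in AG and 4.70 and 5.63 CPM in GG (-0.32 ± 0.48 SE). Summed over the 5 erasers, levels were 915 and 572 CPM in AG and 323 and 325 CPM in GG, mostly from KDM5B. The 9 H3K4 writers summed to 279 and 278 CPM in AG and 261 and 198 CPM in GG. SMYD3 was their largest part in AG (180 and 159 CPM, against 60.5 and 40.03 CPM in GG). KMT2C was the largest in GG (150 and 114 CPM, against 66.5 and 74.1 CPM in AG). Of the 9, 6 had a positive and 3 a negative log2 fold change.

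Of 6 writers of H3K9 methylation, SETDB2 fell in GG and the others were not called. SETDB2, an enzyme of H3K9 trimethylation, stood at 30.9 and 43.3 CPM in AG and 9.31 and 8.46 CPM in GG. The groups were well apart, and the fitted change was 4.18-fold (log2 fold change -2.06 ± 0.37 SE, adjusted p = 0.0287). Its relative SETDB1, which silences transposable elements with TRIM28, had 32.8 and 27.2 CPM in AG and 36.3 and 34.3 CPM in GG (0.23 ± 0.31 SE, adjusted p = 0.649). SUV39H2, a heterochromatin enzyme, had 25.1 and 40.9 CPM in AG and 63.3 and 59.9 CPM in GG. Its groups did not overlap, but it was not called (0.90 ± 0.35 SE, adjusted p = 0.148; 1.28 and 0.0275 without AG replicate 2).

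SUV39H1, the X-linked relative, was low in all libraries, at 2.78 and 1.47 CPM in AG and 3.66 and 2.52 CPM in GG. EHMT1 and EHMT2, which form the dimer that writes H3K9 dimethylation, overlapped between groups. EHMT1 had 16.03 and 25.3 CPM in AG and 35.6 and 20.5 CPM in GG. EHMT2 had 53.5 and 47.2 CPM in AG and 54.1 and 43.1 CPM in GG, a log2 fold change of -0.05 ± 0.30 SE.

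Among the 8 erasers assigned to H3K9, KDM4A fell in GG, and its log2 fold change had the largest size of the 6 called members. KDM4A removes trimethyl groups from H3K9 and H3K36. It stood at 76.9 and 42.4 CPM in AG and 9.40 and 10.3 CPM in GG, without overlap. The change was 6.06-fold (log2 fold change -2.60 ± 0.42 SE, adjusted p = 0.0240), and from -2.12 to -2.98 with single libraries left out. KDM4C, an enzyme of the same family with the same targets, had 70.5 and 66.1 CPM in AG and 87.2 and 66.4 CPM in GG (0.17 ± 0.29 SE, adjusted p = 0.730). KDM4B was low, at 2.35 and 2.84 CPM in AG and 3.23 and 3.24 CPM in GG.

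The erasers of H3K9 mono- and dimethylation were not called. KDM3A had 70.3 and 39.7 CPM in AG and 29.7 and 21.3 CPM in GG, a log2 fold change of -1.11 ± 0.41 SE (adjusted p = 0.129; called without AG replicate 2 at -1.49, adjusted p = 0.0199). KDM3B had the other sign, with 13.0 and 12.5 CPM in AG and 22.7 and 29.2 CPM in GG (1.02 ± 0.35 SE, adjusted p = 0.112). Neither gene's groups overlapped. KDM7A, which also acts on H3K27, had 76.01 and 82.3 CPM in AG and 51.5 and 64.1 CPM in GG (-0.45 ± 0.28 SE). PHF8, an X-linked eraser that also removes H4K20 monomethylation, had 18.3 and 9.45 CPM in AG and 23.6 and 13.0 CPM in GG. In both groups replicate 1 was the higher library, and the groups overlapped. PHF2 was barely detected, with 0 and 35 counts in AG and 14 and 29 in GG.

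For H3K27, the members were the erasers KDM6A and KDM6B, since the writers EZH1 and EZH2 belong to Polycomb. KDM6A, an X-linked demethylase that also works in the KMT2C and KMT2D complexes, had 8.12 and 5.74 CPM in AG and 25.5 and 18.9 CPM in GG. Its groups were separate, and the log2 fold change of 1.68 ± 0.42 SE just missed the threshold (adjusted p = 0.0545). It was called with DESeq2 (0.00469), without AG replicate 1, without a filter on low counts (0.0388) and among genes with a mean of 10 CPM or more (0.0476). It was not called with the DESeq2 size factors, upper-quartile normalization, thinning to equal depth or the replicate block. Leaving out either GG library gave no call either. KDM6B was low in every library, from 12 to 25 counts, with a log2 fold change of -0.27 ± 0.73 SE. EZH2 had 148 and 112 CPM in AG and 70.7 and 53.1 CPM in GG (-1.07 ± 0.31 SE, adjusted p = 0.0740), and EZH1 had 10.3 and 8.18 CPM in AG and 4.94 and 4.40 CPM in GG (-0.98 ± 0.46 SE, adjusted p = 0.210). The ratio of EZH2 to KDM6A reads was thus 18.2 and 19.6 in AG and 2.77 and 2.81 in GG. This pair of uncalled genes with opposite signs was chosen after the values were seen, and its ratio was not tested.

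KDM6A and KDM5C each have a close relative on the Y chromosome, UTY and KDM5D, so reads may be assigned to either copy. Chromosomes were taken by symbol from the RefSeq gene table of assembly T2T-MMU8v2.0. KDM5D had 2 and 116 counts in AG, and 6 and 1 counts in GG. Other Y-linked genes showed the same order of libraries within AG, with DDX3Y at 814 and 9633 counts and USP9Y at 16 and 327 counts. In GG, DDX3Y had 8 and 7 counts and USP9Y 0 and 2.

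UTY did not follow the other Y-linked genes. It had 27 and 34 counts in AG and 89 and 127 counts in GG, and the ratio of KDM6A to UTY reads was 4.22 and 3.32 in AG and 6.03 and 4.36 in GG. UTY was therefore highest in the group in which the other Y-linked genes were near 0, and its value is not read here as RNA of a Y-linked gene. With the reads of UTY added, KDM6A had a log2 fold change of 1.60 ± 0.39 SE (adjusted p = 0.0517). With those of KDM5D added, KDM5C had 8.12 and 11.7 CPM in AG and 9.26 and 11.2 CPM in GG, and its log2 fold change went from 0.55 to 0.04. Both sums were chosen after the values were seen.

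The 4 X-linked members, KDM5C, KDM6A, PHF8 and SUV39H1, all had positive log2 fold changes, from 0.40 to 1.68, and none was called (edgeR; 1 at an unadjusted p under 0.05, and 1 with DESeq2). Over all tested genes, 6760 of 13227 had a positive log2 fold change. The groups were separate for KDM5C and KDM6A (50% of the 4, beside 64.1% of all tested genes) and overlapped for PHF8 and SUV39H1. PHF8 turned negative without AG replicate 2 or GG replicate 1 (-0.03 and -0.08).

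**Figure D3:**
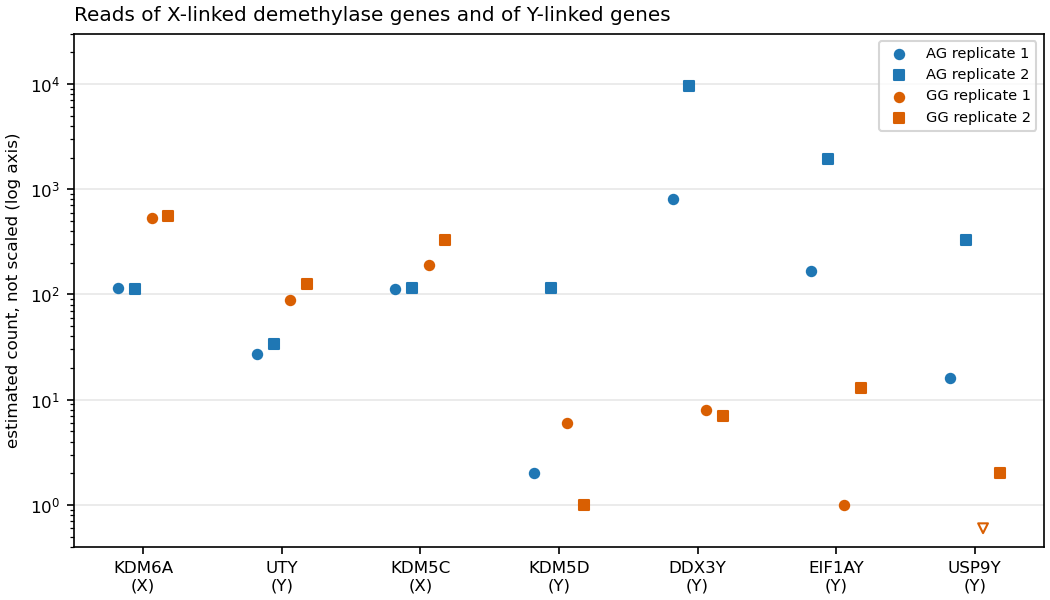
Estimated counts, not scaled for depth, of the X-linked erasers KDM6A and KDM5C, of their Y-linked relatives UTY and KDM5D, and of 3 other Y-linked genes in each library (log axis; an open triangle marks 0). KDM5D, DDX3Y, EIF1AY and USP9Y are highest in AG replicate 2, whereas UTY is highest in the GG libraries, at 89 and 127 counts.

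None of the 8 members assigned to H3K36 was called (edgeR; 3 at an unadjusted p under 0.05, and 0 with DESeq2). NSD1, a writer of H3K36 dimethylation, had 205 and 129 CPM in AG and 116 and 90.8 CPM in GG (-0.69 ± 0.33 SE on the log2 scale, adjusted p = 0.211; -0.33 without AG replicate 1, and called at -1.01 and 0.0308 without AG replicate 2). NSD2 had the other sign, with 13.96 and 11.4 CPM in AG and 29.3 and 23.8 CPM in GG (1.07 ± 0.36 SE, adjusted p = 0.104). Both genes had separate groups. NSD3 differed most between replicates, with 48.3 and 5.69 CPM in AG against 33.01 and 39.1 CPM in GG. Leaving out AG replicate 1 gave a called log2 fold change of 2.65 (adjusted p = 0.0124), and leaving out AG replicate 2 gave -0.44, which was not called.

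SETD2, the enzyme of H3K36 trimethylation, had 99.4 and 83.5 CPM in AG and 57.4 and 49.3 CPM in GG (-0.78 ± 0.28 SE, adjusted p = 0.125; -0.92 and 0.0488 without AG replicate 2). ASH1L, a writer linked to active genes, was almost level at 75.7 and 75.4 CPM in AG and 75.9 and 89.0 CPM in GG. SMYD2, which also methylates p53, had 17.5 and 21.8 CPM in AG and 11.7 and 10.9 CPM in GG (-0.80 ± 0.37 SE, adjusted p = 0.201). Of the erasers, KDM2A, which binds CpG islands, had 13.9 and 11.1 CPM in AG and 13.96 and 16.8 CPM in GG. KDM8, a JmjC protein whose demethylase activity is debated, had 9.83 and 19.1 CPM in AG and 6.27 and 5.18 CPM in GG (-1.34 ± 0.51 SE, adjusted p = 0.135; -1.75 and 0.0405 without AG replicate 1).

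Of the 3 writers assigned to H4K20, KMT5A fell in GG. KMT5A places H4K20 monomethylation and is tied to the cell cycle through destruction in S phase. It stood at 72.8 and 62.7 CPM in AG and 17.2 and 19.0 CPM in GG, with close replicates in both groups. The change was 3.74-fold (log2 fold change -1.90 ± 0.31 SE, adjusted p = 0.0240). KMT5B, which adds further methyl groups to the product of KMT5A, overlapped between groups at 58.8 and 36.3 CPM in AG and 34.7 and 36.8 CPM in GG (-0.41 ± 0.35 SE). SMYD5, first linked to H4K20 trimethylation, had 5.98 and 15.03 CPM in AG and 26.4 and 35.9 CPM in GG. It was not called (1.56 ± 0.53 SE, adjusted p = 0.107), except with DESeq2 (0.0268) and without AG replicate 2, at 2.37 (0.0134). DOT1L, the H3K79 writer, had 11.4 and 18.03 CPM in AG and 10.5 and 11.5 CPM in GG (-0.42 ± 0.42 SE).

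Ratios of reads between 2 genes of 1 library do not depend on the scaling between libraries. The pairs below were chosen after the values were seen and carry no test, and a ratio of reads is not a ratio of molecules, since gene lengths differ. KDM4A to KDM4C was 1.09 and 0.641 in AG and 0.108 and 0.155 in GG. KMT5A to KMT5B was 1.24 and 1.73 in AG and 0.495 and 0.516 in GG. SUV39H2 to SETDB2 was 0.811 and 0.945 in AG and 6.80 and 7.09 in GG. In each of these pairs both AG ratios lay on the same side of both GG ratios.

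Other pairs, chosen in the same way, were separate as well. How often gene pairs separate over all tested genes was not counted. KDM5B to KDM5C went from 92.3 and 62.8 in AG to 20.3 and 16.5 in GG, and KDM5A to KDM5C from 11.7 and 20.9 to 3.94 and 3.03. NSD2 to NSD1 was 0.0681 and 0.0882 in AG and 0.252 and 0.262 in GG. KDM3A to KDM3B was 5.39 and 3.16 in AG and 1.31 and 0.730 in GG. By contrast, EHMT1 to EHMT2 overlapped, at 0.2996 and 0.537 in AG and 0.658 and 0.474 in GG.

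**Figure D4:**
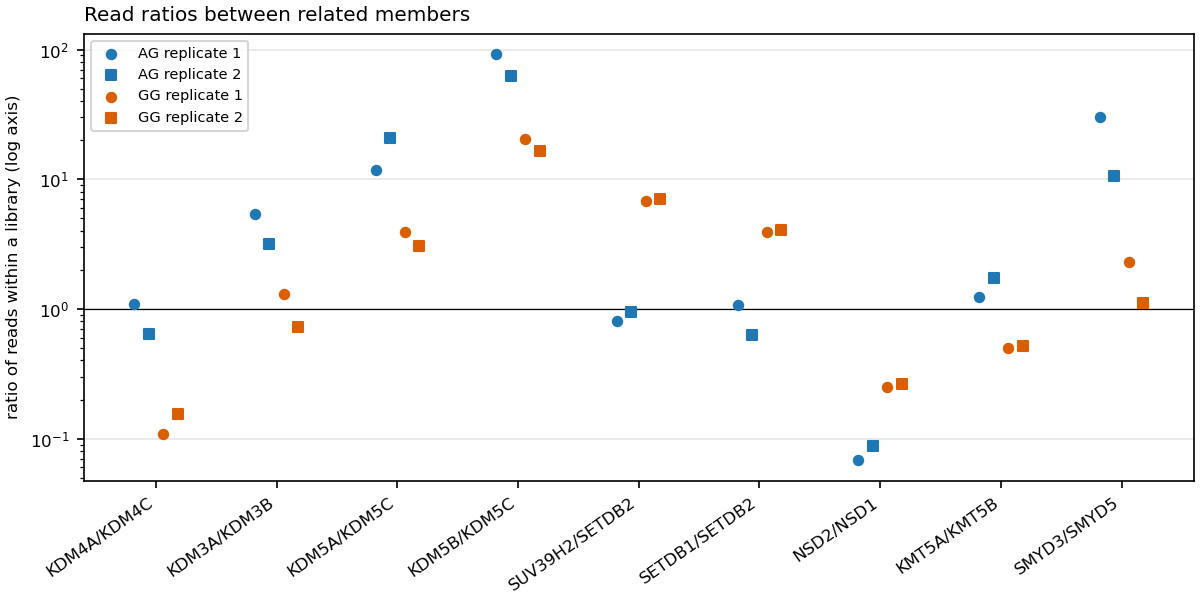
Ratio of reads of 2 related members within each library (log axis; the line marks equal reads), circles for replicate 1 and squares for replicate 2, AG in blue and GG in orange. The groups are separate in all 9 pairs shown. These were chosen after their values were seen, so their separation is no support for a change. The overlapping pair EHMT1 to EHMT2 is not shown. SUV39H2 to SETDB2, for example, was 0.811 and 0.945 in AG and 6.80 and 7.09 in GG.

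Partners of these enzymes, in lists written with earlier results of these data known, were read from the same fit. The share of called genes in each list is given beside 12.9% of all tested genes. That share was 0% for COMPASS and for Polycomb partners, 18.2% for CoREST, 14.3% for H3K9, 27.3% for H3K36 and H3K79, 33.3% for H4K20, 15.8% for other SET and JmjC genes and 13.6% for methyl donor and 2-oxoglutarate supply, each over 9 to 22 genes. COMPASS subunits and readers of H3K4 methylation held no called gene among 16 tested (edgeR; 1 at an unadjusted p under 0.05, and 1 with DESeq2), with a median log2 fold change of -0.05. Among 11 tested partners of KDM1A, 1 rose and 1 fell in GG. GSE1, a CoREST-associated protein, rose from 0.712 and 1.37 CPM in AG to 15.6 and 13.9 CPM in GG (3.80 ± 0.57 SE, adjusted p = 0.0209). HMG20B, a subunit of that complex, stood at 37.9 and 37.2 CPM in AG and 2.33 and 8.05 CPM in GG (-2.85 ± 0.64 SE, adjusted p = 0.0448), and its log2 fold change was -2.21 without GG replicate 1 and -4.04 without GG replicate 2.

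Among 14 tested partners in H3K9 silencing, 2 fell in GG and 0 rose (edgeR; 0 with higher values in GG at an unadjusted p under 0.05 or with DESeq2). CBX5, a heterochromatin protein that binds H3K9 trimethylation, stood at 261 and 193 CPM in AG and 20.2 and 25.6 CPM in GG. That 9.91-fold change (-3.31 ± 0.32 SE, adjusted p = 0.00871) was of the same sign as that of SETDB2 and KDM4A. Of the 14 members assigned to H3K9, 8 had a positive log2 fold change. MPHOSPH8, a reader of the same mark in the HUSH complex, had 380 and 397 CPM in AG and 110 and 90.3 CPM in GG (-1.95 ± 0.25 SE, adjusted p = 0.0152). CBX1 and CBX3, from the same list, overlapped between groups and were not called (-0.01 ± 0.30 SE and -0.12 ± 0.22 SE). The list's median was -0.07.

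The 11 tested genes of the Polycomb H3K27 methyltransferase held no call (edgeR; 5 at an unadjusted p under 0.05; with DESeq2, 2 with higher and 1 with lower values in GG), and 8 of them had negative log2 fold changes. Of 11 tested readers and partners of H3K36 and H3K79 methylation, 2 rose and 1 fell in GG. MORF4L1, which binds methylated H3K36, rose from 130 and 121 CPM to 305 and 317 CPM. MLLT10, a cofactor of DOT1L, rose from 9.76 and 11.4 CPM to 35.9 and 26.3 CPM, a call (adjusted p = 0.0487) that ended with the replicate block (0.0629) and without AG replicate 1 (0.0581). MSH6, a mismatch repair protein that reads H3K36 trimethylation, fell from 470 and 352 CPM to 189 and 162 CPM.

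Among 9 tested partners and readers of H4K20 methylation, 2 rose and 1 fell in GG. PCNA, the replication clamp on which KMT5A is marked for destruction, fell from 1335 and 859 CPM in AG to 357 and 398 CPM in GG (-1.54 ± 0.29 SE, adjusted p = 0.0309). CUL4B, an X-linked scaffold of the ubiquitin ligase family that removes KMT5A, rose from 58.0 and 30.5 CPM to 206 and 178 CPM. From the same list, CUL4A (0.88 ± 0.26 SE) and DDB1 (0.77 ± 0.31 SE) had the same sign as CUL4B. DTL had the other sign (-1.05 ± 0.27 SE), and CUL4A, DDB1 and DTL were not called. These are RNA levels, and protein was not measured. L3MBTL3, a reader of lower methylation states, rose from 4.27 and 6.04 CPM to 19.4 and 20.3 CPM.

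SET and JmjC genes outside the list gave 19 tested genes, of which 1 rose and 2 fell in GG. KDM4D, a further H3K9 eraser of the KDM4 family, stood at 19.9 and 22.8 CPM in AG and 4.37 and 3.96 CPM in GG. Its change (-2.36 ± 0.40 SE, adjusted p = 0.0264) had the same sign as that of KDM4A. KDM4B and KDM4C had the other sign and were not called. SETMAR, a SET gene fused to a transposase, had 77.2 and 51.6 CPM in AG and 21.8 and 22.9 CPM in GG, with an adjusted p of 0.0444 that became 0.0523 under the replicate block. JMJD1C, a relative of KDM3A and KDM3B, rose from 17.5 and 22.6 CPM to 48.7 and 55.2 CPM (adjusted p = 0.0488) but missed the threshold under the replicate block (0.0547), without AG replicate 1 (0.0536) and after thinning to equal depth (0.0521). KDM2B, the Polycomb-linked relative of KDM2A, overlapped between groups (-0.16 ± 0.51 SE).

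Genes that supply the methyl donor and 2-oxoglutarate, or turn over their products, gave 22 tested genes, of which 3 rose in GG and 0 fell (edgeR; 1 with lower values in GG at an unadjusted p under 0.05, and 1 with DESeq2). IDH2, a mitochondrial enzyme that makes 2-oxoglutarate, rose from 6.48 and 7.82 CPM in AG to 44.5 and 64.04 CPM in GG (2.92 ± 0.38 SE, adjusted p = 0.0162). SDHA, which clears succinate, an inhibitor of JmjC enzymes, rose from 31.3 and 50.7 CPM to 146 and 178 CPM. MTHFD1, of the folate cycle, rose from 152 and 126 CPM to 299 and 370 CPM. The list's median was 0.40.

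The calls of the 6 members depended on which group kept both libraries. With either AG library left out, these 6 kept their calls and negative signs, and calls became more frequent over all genes as well. With either GG library left out, 0 members were called, while the 6 log2 fold changes kept their sign and lay between -1.51 and -2.70. The spread then came from the AG pair alone, and the calls over all genes dropped from 1709 to 119 and 84.

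**Figure D5:**
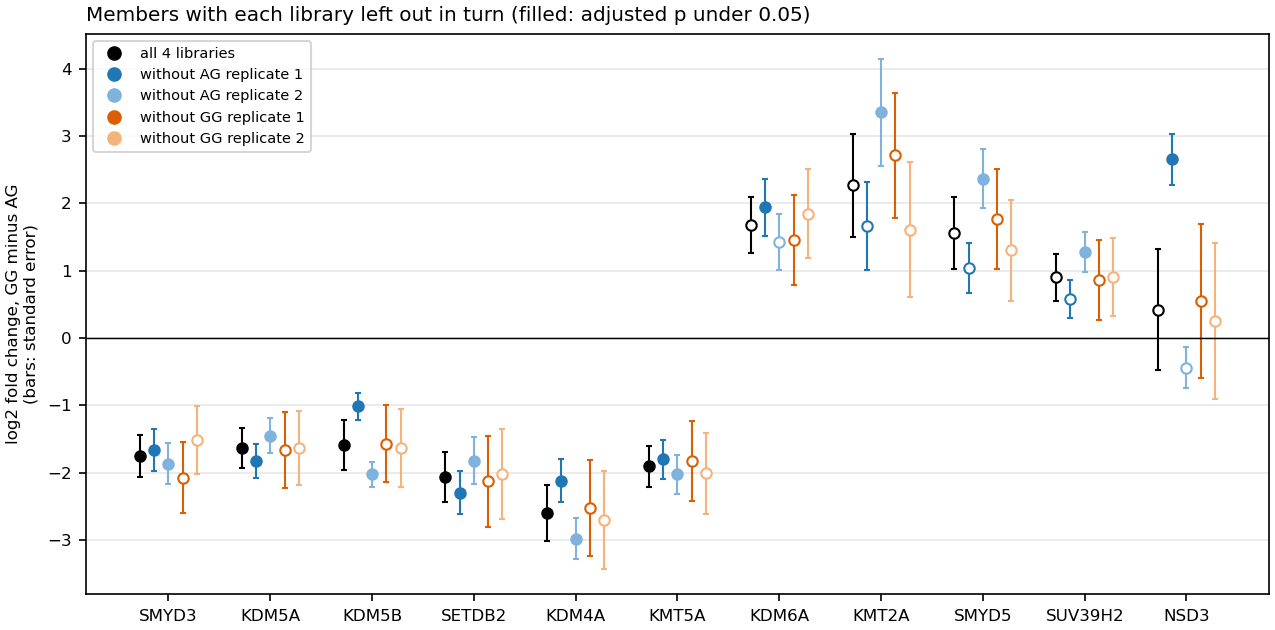
Log2 fold change (GG minus AG) with its standard error for 11 members from all 4 libraries (black) and with each library left out in turn (blue shades for AG, orange shades for GG); filled points have an adjusted p under 0.05. The 6 called members at the left stay negative in all 5 fits and lose their fill without a GG library, and NSD3 moves from 2.65 to -0.44 with the AG library left out.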

How the data were processed

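RNA was measured in 4 libraries, 2 AG and 2 GG; groups come from the sample titles. The authors deposited one estimated count per gene and library, made from reads without scaling to depth. Per the submitters' processing notes, Trim Galore, STAR 2.6.0c, Salmon 0.12.0 and the rheMac8 build were used, with no role or order stated; annotation release and strand setting: not given in the sources used here. cDNA was amplified from very low input, per the labels' protocols, and no molecular identifiers are named, so counting intervals cover counting error only. Estimated counts of near copies and overlapping genes are uncertain.

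Counts were rounded and tested with edgeR 4.0.16 in R 4.3.3 (filterByExpr with minimum count 10 and total 15, TMM, quasi-likelihood F test, group alone, called at an adjusted p under 0.05); the code was tested on simulated data. Standard errors are the log2 fold change divided by the root of F. DESeq2 1.42.0, other scalings and filters, thinning, a replicate block and leaving out each library were alternatives. Symbols matched for 14654 of 21314 genes (68.8%). Members and lists were chosen with earlier results of these data known. Every member is named, as are up to 4 called genes with the smallest p from each partner list, and EZH1, EZH2, KDM2B, KDM5D and UTY. All 42 members had 1 identifier, so summing identifiers changed nothing.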

Additional observations from a re-analysis of the deposited data

How the results depend on the processing

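Over all genes, 839 were called higher in GG and 870 higher in AG; DESeq2 gave 1630 and 1711, no filter on low counts gave 1360 higher in AG, and single libraries left out gave 49 to 2007 and 35 to 1779. For members, the 0 called higher in GG became 1 without a filter, 1 with a minimum mean of 10 CPM (KDM6A in both), 4 with DESeq2 and 0 to 3 with single libraries left out, and the 6 called higher in AG became 0 to 9. Replicate numbers are shared by AG and GG but nothing ties them to an animal or day, and the differences between replicates correlated weakly across 13227 genes (Pearson r = 0.0986, 2 pairs). With the replicate block, 874 and 823 genes and 0 and 6 members were called; among the members it moved PHF2 to 0.97 and ended no call. Members and KDM2B that changed sign with a library left out were all uncalled in the fit of 4 libraries, with log2 fold changes from -0.67 to 0.0052 for KMT2B, -0.29 to 0.57 for KMT2D, -0.11 to 0.38 for KMT2E, -0.012 to 0.78 for EHMT1, -0.21 to 0.075 for EHMT2, -0.034 to 0.32 for KDM4C, -0.079 to 0.94 for PHF8, -1.10 to 7.16 for PHF2, -0.53 to 0.026 for KDM6B, -0.44 to 2.65 for NSD3, -0.023 to 0.24 for ASH1L and -0.57 to 0.36 for KDM2B. No member changed sign with another scaling or filter, with DESeq2 or after thinning. Every called partner gene named lost its call with either GG library left out. The cause of these changes was not tested. The members with the fewest reads were SETD1B, PHF2 and KDM6B, with standard errors of 1.37, 1.503 and 0.73 on the log2 scale.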
